A study of Homo sapiens with 12 samples.

Results

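The HOX genes are the homeobox genes of the HOXA, HOXB, HOXC and HOXD clusters. All symbols that consist of one of those 4 names and a number were taken, which gave 39 genes in the RefSeq gene table, and 28 of them had a probe set of their own in the annotation used here. These 28 were HOXA2, all 10 HOXB genes, all 9 HOXC genes and 8 of the 9 HOXD genes. The other 10 HOXA genes and HOXD3 had no probe set that named them alone, and their mRNAs were not analysed here. Each gene was read from the probe set with the highest maximum over the 12 arrays, and the whole table held 19775 genes read in that way.

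HOX proteins bind DNA through a homeodomain and give cells of the embryo their position along the body axis. Within a cluster the genes lie in the order in which they act. Genes of low paralog number act in the hindbrain and neck, those of middle number in the trunk, and those of high number in the sacrum, limbs, genital tract and prostate. Adult cells and tumour lines often keep the HOX pattern of the place they came from. Polycomb complexes hold silent HOX genes under repressive histone methylation, trithorax complexes keep active ones open, and retinoic acid switches on the low-numbered ones in the embryo. HOX proteins bind many sites together with PBX and MEIS proteins.

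The samples were labelled PC3, a human prostate cancer line, and their RNA was hybridised to Affymetrix 3-prime expression arrays to see how an inhibitor of the kinase Wee1 and an inhibitor of the chaperone Hsp90, given alone and together, changed transcript levels. Of the 4 groups with 3 arrays each, the first received Wee1 inhibitor II at 2.5 µM, the next received 17-AAG, the Hsp90 inhibitor, at 40 nM, the third received both, and the control group received vehicle per the treatment protocol and is named untreated in the sample labels. Per that protocol 17-AAG was added 24 h after the Wee1 inhibitor and RNA was taken 48 h after 17-AAG. Control replicate 2 was set aside by the submitters as weak in signal, and the drug comparisons below rest on the other 11 arrays, with 2 control arrays.

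The 2% trimmed mean was equal on the 12 arrays, and the median signal was 17.7 to 23.1 on the 11 arrays and 20.8 on control replicate 2. Across all probe sets the 11 arrays correlated with each other at 0.913 to 0.936, and with control replicate 2 at 0.825 to 0.833. The 11 arrays go against their label. Of 12 measured markers of PC3 cells and prostate epithelium, 8 had a signal under 32 on each of the 11 arrays, among them EPCAM, CDH1 and KRT19, and the 2 markers of at least 100 on each of them were KRT18 and ESRP1. On control replicate 2, 9 of the 12 reached 100. All 9 measured markers of pigment cells were at 100 or more on each of the 11 arrays, and 7 of them were under 32 on control replicate 2. CTNNA1 and STAT3, which are deleted in PC3, read 2559 to 5040 and 819 to 1296 on the 11 arrays, against 1.57 and 7.54 on control replicate 2. The cells are therefore called arrays labelled PC3 below. Markers of fibroblasts (1 of 6 at 100 or more on each of the 11 arrays) and of blood cells (0 of 4) were mostly dim.

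The promoters of HOXD13, HOXD8 and HOXC4 are shown because their genes carried signal on the 11 arrays, because HOXD8 rose in each treated group and HOXD13 fell with both drugs, and because the HOXC4 start is annotated as the start of HOXC5 too. Each is the RefSeq stretch of GRCh38.p14 with 250 bases before and 50 after the annotated start, written 5′ to 3′ on the plus strand. They lie at chr2:176092471-176092770, chr2:176129455-176129754 and chr12:54016638-54016937. Capitals mark TTTAT, the core that posterior HOX proteins prefer, or its reverse complement, and in HOXD13 the 2 matches overlap. A match to so short a sequence does not show that a HOX protein binds there, and binding was not tested.

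HOXD13: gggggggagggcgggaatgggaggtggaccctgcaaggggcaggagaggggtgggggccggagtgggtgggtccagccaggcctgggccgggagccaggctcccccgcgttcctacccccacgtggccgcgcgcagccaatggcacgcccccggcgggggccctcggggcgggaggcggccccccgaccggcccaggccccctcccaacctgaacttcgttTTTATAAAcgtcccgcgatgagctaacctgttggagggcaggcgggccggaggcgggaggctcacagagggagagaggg
HOXD8: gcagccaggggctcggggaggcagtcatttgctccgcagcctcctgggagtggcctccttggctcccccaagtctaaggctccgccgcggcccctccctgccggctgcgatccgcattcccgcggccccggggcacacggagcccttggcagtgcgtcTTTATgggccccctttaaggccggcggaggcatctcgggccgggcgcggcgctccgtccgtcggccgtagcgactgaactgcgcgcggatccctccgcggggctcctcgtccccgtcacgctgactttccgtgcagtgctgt
HOXC4: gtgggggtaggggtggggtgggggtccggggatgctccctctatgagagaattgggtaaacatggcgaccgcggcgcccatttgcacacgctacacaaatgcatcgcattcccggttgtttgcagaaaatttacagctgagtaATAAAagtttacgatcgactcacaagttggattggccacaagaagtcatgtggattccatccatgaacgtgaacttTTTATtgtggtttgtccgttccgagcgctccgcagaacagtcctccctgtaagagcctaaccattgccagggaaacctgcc

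RefSeq held promoters for 11 of the 28 genes, which are 10 distinct stretches because HOXC4 and HOXC5 share one. On either strand, 5 of the 10 held TTTAT, as did 34.9% of all 35116 promoters in the table. The MEIS site TGACAG was in 2 of the 10 and in 15.8% of all, and the joint PBX and HOX site TGATNNAT was in 3 of the 10 and in 7.40% of all. The promoters of HOXD13 and HOXD8 were rich in C and G (74.0% and 71.7%, against a median of 58.7% over all promoters). Of the HOXD genes under 32 on the 11 arrays, HOXD1 had 74.3% and HOXD10, HOXD11 and HOXD12 had 54.3% to 62.3%, and HOXD4, which was neither bright nor dim, had 47.3%.

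The clusters also hold miRNA genes. MIR10A lies between HOXB4 and HOXB5, MIR196A1 between HOXB9 and HOXB13, MIR196A2 between HOXC10 and HOXC9, and MIR196B in the HOXA cluster. Their mature forms are shown with the seed, bases 2 to 8, in capitals. miR-196a and miR-196b share one seed, and miR-196 is known to cleave HOXB8 mRNA. Genomic positions of the mature sequences in GRCh38.p14 are chr17:48579904-48579926 on the minus strand for miR-10a-5p, chr12:53991762-53991783 on the plus strand for the MIR196A2 copy of miR-196a-5p, and chr7:27169528-27169549 on the minus strand for miR-196b-5p. These arrays read polyadenylated transcripts and not mature miRNAs.

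hsa-miR-10a-5p: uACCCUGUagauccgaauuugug
hsa-miR-196a-5p: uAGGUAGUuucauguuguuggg
hsa-miR-196b-5p: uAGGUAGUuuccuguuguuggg

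On the 11 arrays the bright genes among the measured HOX genes came from the HOXB and HOXC clusters. Of the HOXA cluster only HOXA2 was measured, so bright HOXA genes could have been missed. HOXB2, HOXB3, HOXB7, HOXC4, HOXC6 and HOXC10 had a signal of at least 100 on each of the 11 arrays, which is 21.4% of the 28 genes, against 36.6% of all genes. A further 10, or 35.7%, stayed under 32 on each of them, against 38.1% of all genes: HOXA2, HOXB1, HOXB13, HOXC11, HOXC12, HOXD1, HOXD9, HOXD10, HOXD11 and HOXD12. The remaining 12 lay between, and of these HOXD13 missed the cutoff for bright only on 17-AAG replicate 1, at 99.0. HOXB3 was bright on the probe set used, while its other probe set read 7.55 to 20.2 on the 11 arrays.

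By position, none of the 11 genes of paralog numbers 4 to 8 was under 32 throughout, and 3 of them were bright. Among these, HOXB8, HOXC8 and HOXD4 passed 32 only on treated arrays, with at most 8.17, 12.96 and 25.6 in control. The same held for HOXB9, with at most 29.2 in control. The split by position thus depends in part on the cutoff and on the treated arrays. Of the 12 genes of numbers 9 to 13, 7 were under 32 throughout and 1, HOXC10, was bright. Of the 5 genes of numbers 1 to 3, 2 were bright and 3 under 32 throughout. The HOXD cluster held no bright gene, and 5 of its 8 measured members were under 32 throughout. HOXD13 missed the cutoff for bright narrowly, with 99.0 on 17-AAG replicate 1 and 101 to 161 on the other compared arrays. The lack of a bright HOXD gene, and HOXC10 as the only bright gene of numbers 9 to 13, rest on that reading. HOXD8 and HOXD13, which lie apart from each other in the cluster, carried signal while HOXD9, HOXD10, HOXD11 and HOXD12 between them did not pass 32. Signals of different probe sets depend on their probes and were not ranked against each other.

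Among the bright genes the highest standard deviation within a group was 0.35 on the log2 scale and the median was 0.12. Among those under 32 the median was 0.95 and the highest 2.87. In the comparison of Wee1 inhibitor with control below, the standard errors of these dim genes ran from 0.37 for HOXD9 to 1.43 for HOXD1.

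**Figure D1:**
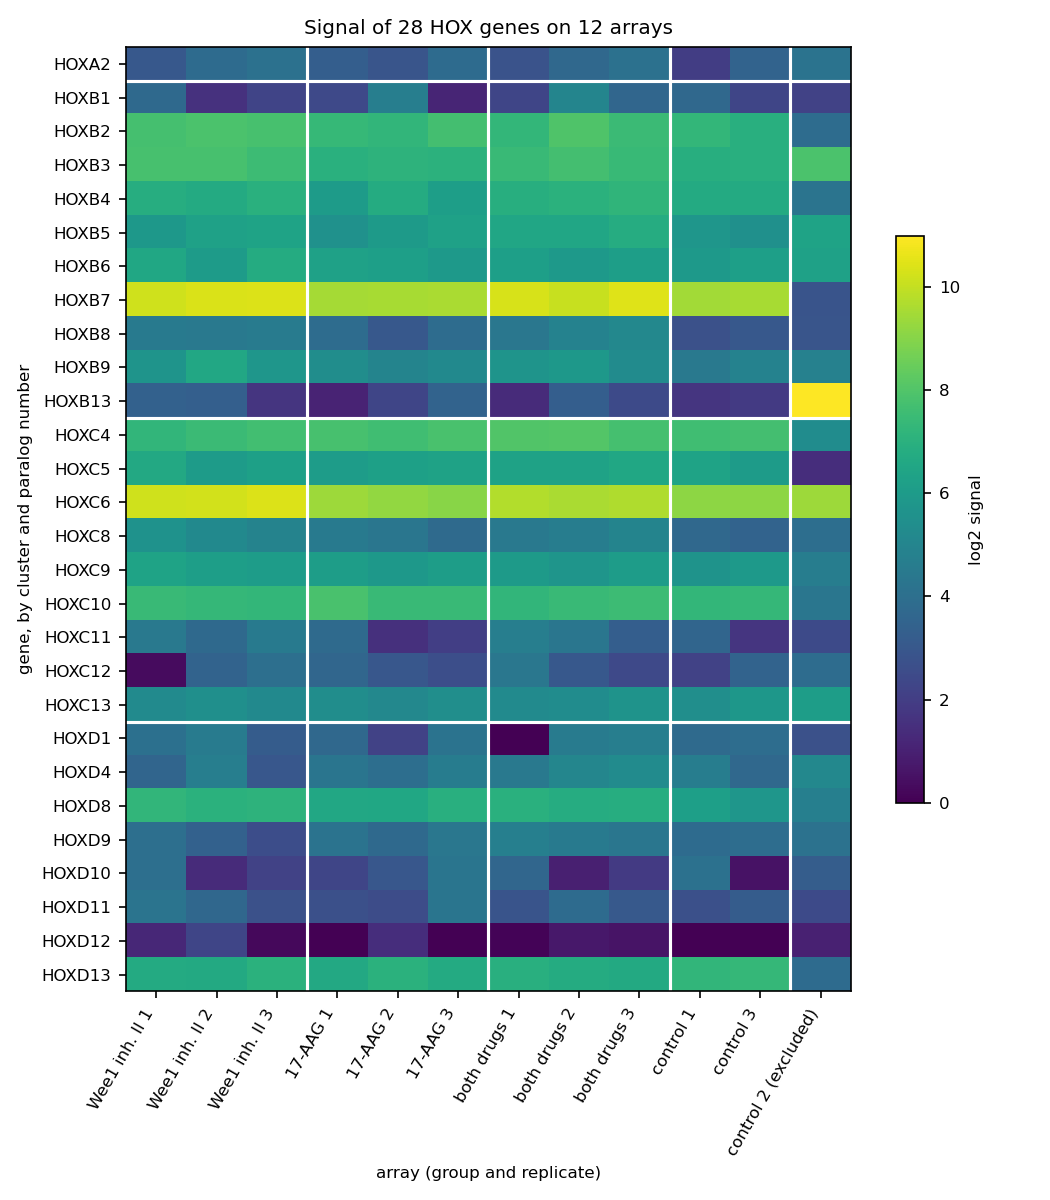
Log2 signal of the 28 measured HOX genes (down, by cluster and paralog number) on the 12 arrays (across, by group and replicate). On control replicate 2, at the right, HOXB7 is dim and HOXB13 bright, the reverse of the 11 arrays.

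Control replicate 2 carried another HOX pattern than the other 11 arrays. It is 1 array, so the values are a description without a test. A gene was counted as apart if its signal on control replicate 2 was at least 4-fold outside the whole range of the 11, with at least 200 on the brighter side. This held for 4 of the 28 genes, 3 of them higher on the 11 arrays and 1 lower, against 2.13% and 2.37% of all genes.

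HOXB7, a trunk gene of the HOXB cluster, read 716 to 1424 on the 11 arrays and 7.15 on control replicate 2. Signals under 32 scatter widely, so folds are given as lower limits with such signals set to 32, and HOXB7 was at least 22.4-fold higher on the 11. Its other 2 probe sets differed the same way, with at least 398 on the 11 arrays and at most 19.1 on control replicate 2. HOXB2, which patterns the hindbrain, read 123 to 250 on the 11 and 14.9 on control replicate 2, at least 3.85-fold higher, so with this limit it would not be counted. HOXC10, a lumbar gene, read 149 to 226 on the 11 and 19.9 on control replicate 2, at least 4.66-fold higher.

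HOXB13, the most posterior gene of its cluster and a marker of prostate epithelium, went the other way. It read 2.14 to 11.3 on the 11 arrays and 2087 on control replicate 2, at least 65.2-fold lower on the 11. Its second probe set read 0.46 to 4.93 on the 11 and 938 on control replicate 2. PRAC1, a prostate transcript that lies between HOXB9 and HOXB13, read 1.18 to 13.4 on the 11 and 2890 on control replicate 2. A probe set shared by MIR3185 and PRAC2, in the same interval, read 2.25 to 15.8 on the 11 and 129 on control replicate 2.

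Genes just outside the count were HOXD13, at 99.0 to 161 on the 11 and 14.5 on control replicate 2, and HOXC5, at 64.7 to 99.6 and 2.73. Neither reached 200. HOXC4 read 152 to 265 on the 11 and 41.1 on control replicate 2, which is at least 3.70-fold higher. HOXB4 read 65.2 to 146 and 18.7, at least 2.04-fold, and HOXD8 read 55.6 to 149 and 26.7, at least 1.74-fold. All 3 probe sets of HOXD13, the digit and genital tubercle gene, were lower on control replicate 2 than on each of the 11.

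For other members control replicate 2 lay inside the range of the 11. HOXC6 read 532 to 1380 on the 11 and 671 on control replicate 2, and HOXB5, HOXB6, HOXB8, HOXB9 and HOXC8 were also inside. HOXB3 read 120 to 225 on the 11 and 234 on control replicate 2. In all, control replicate 2 lay inside that range for 14 of the 28 genes, below it for 10 and above it for 4. Over all genes the counts were 10230, 4663 and 4882 of 19775.

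Few readings touch the HOXA cluster. HOXA2 was the only one of its HOX genes measured, at 3.94 to 17.1 on the 11 and 18.0 on control replicate 2. The non-coding HOXA11-AS read 9.26 to 25.3 on the 11 and 97.0 on control replicate 2. A probe set shared by HOXA10-AS and MIR196B read 1.00 to 9.57 on the 11 and 90.9 on control replicate 2. For the non-coding HOXA-AS2, HOXA-AS3 and HOTTIP of that cluster, control replicate 2 lay inside the range of the 11. They read 8.84 to 31.4, 3.90 to 23.1 and 16.3 to 47.2 on the 11, and 29.4, 8.14 and 18.0 on control replicate 2. Among HOX partners, MEIS1 read 84.0 to 154 on the 11 and 31.8 on control replicate 2. ALDH1A3, which makes retinoic acid, read 129 to 314 on the 11 and 6083 on control replicate 2.

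**Figure D2:**
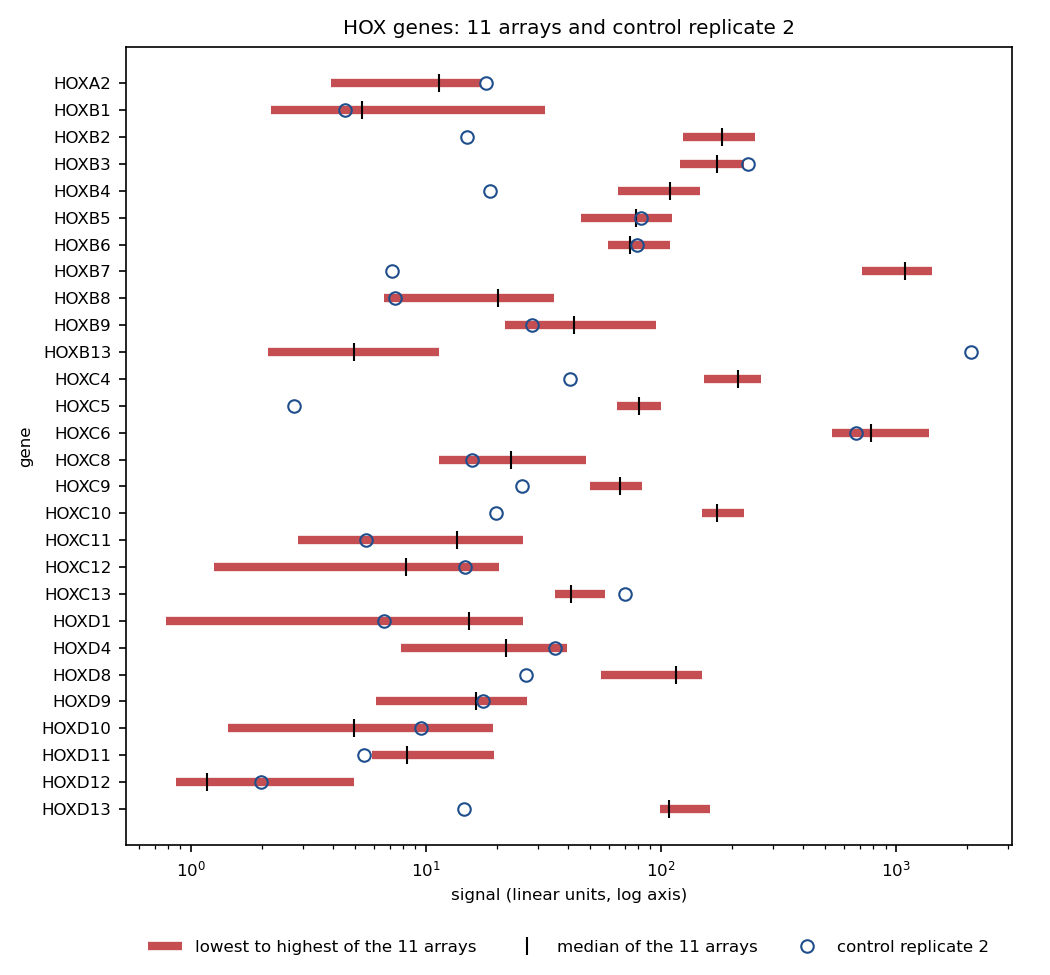
Signal (log axis) of each HOX gene: the bar spans the lowest to the highest of the 11 arrays, the tick is their median, and the open circle is control replicate 2. The circle lies far left of the bar for HOXB7 (716 to 1424 on the 11 and 7.15 on control replicate 2) and far right of it for HOXB13 (2.14 to 11.3 on the 11 and 2087 on control replicate 2).

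With Wee1 inhibitor II, 8 of the 28 HOX genes rose over control and none was called lower, with 9 and 1 at an unadjusted p under 0.05. The test was limma over all 19775 genes of the 11 arrays, with p-values adjusted over the whole table by the Benjamini-Hochberg procedure and a call at an adjusted p under 0.05. In this comparison 25.0% of all genes were called, 14.6% higher and 10.4% lower. The share of all genes at an unadjusted p under 0.05 was not computed, here or below. Counts at that threshold are thus not read as particular to HOX genes. The median log2 fold change was 0.48 over the 28 HOX genes and 0.12 over all genes. The called genes were HOXB2, HOXB3, HOXB7, HOXB8, HOXB9, HOXC6, HOXC8 and HOXD8. The HOXB cluster held 5 of them, and 10 of the 28 measured genes. In bulk RNA, more cells of a type and more RNA per cell cannot be told apart. Nothing in the labels says that the arrays of a group came from separate cultures, so the p-values speak of how far these arrays scatter, and that scatter could be technical. The share of all genes whose groups did not overlap was not computed. Statements below that groups did not overlap therefore describe single genes and add no support to a call.

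HOXC6, a trunk gene, read 1183, 1233 and 1380 in Wee1 inhibitor cells, against 566 and 553 in control. All 3 treated arrays were far above both control arrays. The log2 fold change was 1.18 ± 0.12 (standard error), or 2.26-fold, with an adjusted p of 0.000318 by limma.

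HOXB7 read 1188, 1321 and 1361 in Wee1 inhibitor cells, against 716 and 763 in control, and the groups did not overlap. It rose by 0.80 ± 0.12 on the log2 scale, or 1.74-fold (limma adjusted p 0.00227). Its other 2 probe sets rose by 0.77 and 0.86.

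HOXB3, which acts in the hindbrain and in blood progenitors, read 225, 223 and 189 in Wee1 inhibitor cells, against 120 and 122 in control. It rose by 0.81 ± 0.12 (limma adjusted p 0.00182), with no overlap. A second, dimmer HOXB3 probe set gave 0.03, with an adjusted p of 0.971 by limma. HOXB2 read 219, 240 and 226 in Wee1 inhibitor cells, against 157 and 123 in control. Its rise of 0.71 ± 0.22 was the least secure, at a limma adjusted p of 0.0499.

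HOXD8 read 149, 129 and 137 in Wee1 inhibitor cells, against 75.0 and 55.6 in control. It rose by 1.10 ± 0.17, or 2.14-fold (limma adjusted p 0.00212), and each treated array was above both controls.

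HOXB8, HOXB9 and HOXC8, all known from the patterning of the thorax, had larger fold changes but dim signals. HOXB8 read 22.5, 21.9 and 23.6 in Wee1 inhibitor cells, against 6.65 and 8.17 in control, a rise of 1.62 ± 0.31 (limma adjusted p 0.00627). HOXC8 read 48.1, 36.8 and 30.3 in Wee1 inhibitor cells, against 12.96 and 11.39 in control, a rise of 1.63 ± 0.26 (limma adjusted p 0.00295). HOXB9 read 51.5, 95.3 and 54.2 in Wee1 inhibitor cells, against 21.7 and 29.2 in control, a rise of 1.35 ± 0.30 (limma adjusted p 0.0126). The second probe sets of HOXB8 and HOXB9 gave 1.41 and 0.43 and were not called (limma adjusted p 0.473 and 0.303). For all 3 the treated and control arrays did not overlap, but the control arrays lay near or under the array medians, where fold changes are rough. With every signal under 32 set to 32, the calls of HOXB8 and HOXC8 were lost, as was that of HOXB2, at limma adjusted p of 1, 0.287 and 0.0563.

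Of the 20 genes without a call, HOXD13 was the nearest on the lower side. It read 105, 103 and 129 in Wee1 inhibitor cells, against 149 and 161 in control, a log2 difference of -0.47 ± 0.16 (limma adjusted p 0.0598). The groups did not overlap. On another HOXD13 probe set the difference was -1.05, with a limma adjusted p of 0.0125, and on the third it was -0.68 (limma adjusted p 0.315). HOXC10, at 176, 163 and 156 in Wee1 inhibitor cells against 156 and 161 in control, differed by 0.06 ± 0.15 (limma adjusted p 0.839), with a 95% interval of -0.28 to 0.39. HOXC4 differed by -0.20 ± 0.15 (limma adjusted p 0.418). HOXB4, HOXB5 and HOXB6, which lie between the risen HOXB3 and HOXB7, differed by 0.13, 0.53 and 0.38, with limma adjusted p of 0.735, 0.154 and 0.294. HOXC9 and HOXC13 differed by 0.43 and -0.33 (limma adjusted p 0.0823 and 0.231), and HOXC5, beside HOXC4, by 0.09 (0.795).

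The HOXB2 call was lost when any of 8 of the 11 arrays was left out, at limma adjusted p up to 0.264 without control replicate 3, and held without 17-AAG replicate 3 or without replicate 1 or 2 of both drugs. HOXB9 lost its call without control replicate 1 (limma adjusted p 0.0927), and with control replicate 2 included 5 HOX genes were called. With each array centred on its median, 7.43% of all genes were called higher and 14.7% lower. The HOX median was then 0.25 and that of all genes -0.10, 7 HOX genes were called higher, and HOXD13 was called lower at -0.70 (limma adjusted p 0.0289).

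With 17-AAG alone 1 HOX gene rose, HOXD8, and none was called lower, while 9.95% of all genes were called higher and 6.93% lower. The median log2 fold change was 0.22 over the HOX genes and 0.01 over all genes. HOXD8 read 96.7, 94.8 and 124 in 17-AAG cells, against 75.0 and 55.6 in control, and the groups did not overlap. The rise was 0.69 ± 0.17 (limma adjusted p 0.0247). Without 17-AAG replicate 3 or without control replicate 3 no HOX gene was called, at limma adjusted p for HOXD8 of 0.0639 and 0.162, and without 17-AAG replicate 2 the calls were HOXB4, HOXB8, HOXD8 and HOXD13. Leaving out 17-AAG replicate 3 or control replicate 3 left 3 and 1 HOX genes at an unadjusted p under 0.05.

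HOXB7 read 738, 760 and 771 in 17-AAG cells, against 716 and 763 in control, a difference of 0.03 ± 0.12 (limma adjusted p 0.908), with a 95% interval of -0.25 to 0.32. HOXC6 read 666, 597 and 532 in 17-AAG cells, against 566 and 553 in control, a difference of 0.09 ± 0.12 (limma adjusted p 0.690), with a 95% interval of -0.18 to 0.36. For both, the arrays of the groups overlapped. HOXD13 read 99.0, 131 and 106 in 17-AAG cells, a difference of -0.48 ± 0.16 (limma adjusted p 0.0764), with every treated array under both controls. At an unadjusted p under 0.05 limma gave 3 HOX genes higher and 1 lower with 17-AAG. Over all genes at least the called shares, 9.95% higher and 6.93% lower, pass that threshold too.

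**Figure D3:**
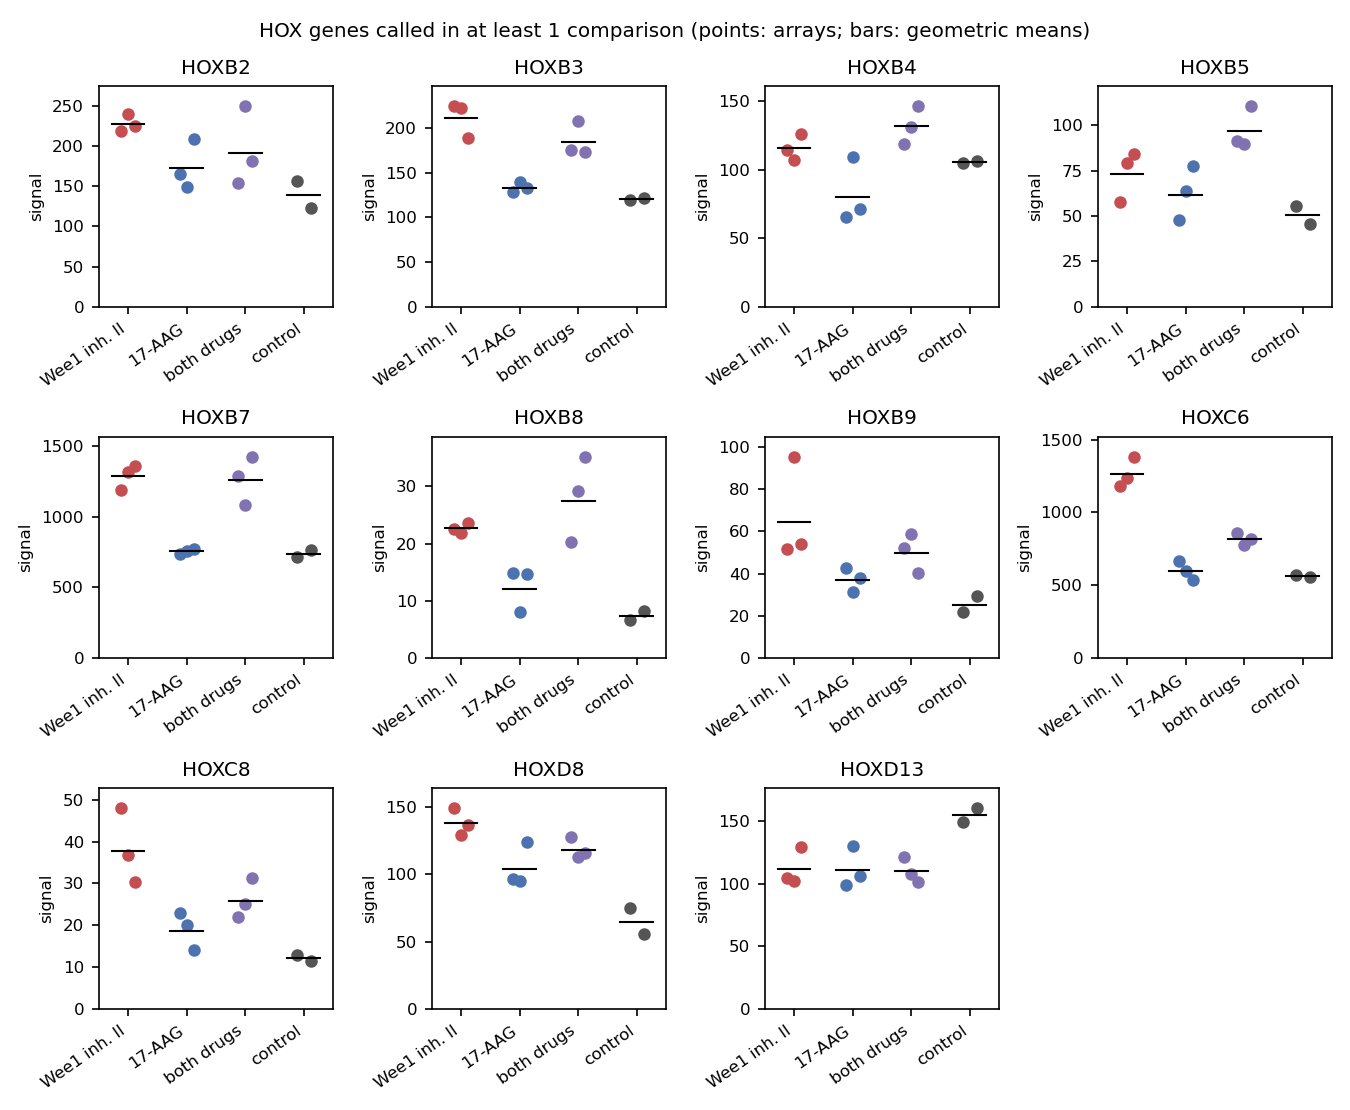
Signal (linear axis from 0) of the 11 HOX genes called in at least 1 comparison, on each array of the 4 groups, with the geometric mean as a bar. HOXB7 and HOXC6 stand higher in Wee1 inhibitor cells and in cells given both drugs than in control, and HOXD13 stands lower in the 3 treated groups.

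With both drugs together 8 HOX genes rose and 1 fell against control, while 16.9% of all genes were called higher and 11.4% lower. The median log2 fold change was 0.56 over the HOX genes and 0.12 over all genes. The genes higher were HOXB3, HOXB5, HOXB7, HOXB8, HOXB9, HOXC6, HOXC8 and HOXD8, and the gene lower was HOXD13. With each array centred on its median the balance over all genes turned, to 9.96% higher and 14.3% lower, with a median of -0.07 over all genes and 0.37 over the HOX genes. Then 5 HOX genes were called higher and 1 lower, and HOXC6 at 0.35, HOXB9 and HOXB5 lost their calls (limma adjusted p 0.201, 0.113 and 0.0524).

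HOXB7 read 1287, 1086 and 1424 in cells given both drugs, against 716 and 763 in control. It rose by 0.77 ± 0.12, or 1.70-fold (limma adjusted p 0.00212), and its other 2 probe sets rose by 0.82 and 0.76. HOXB3 read 175, 208 and 173 in cells given both drugs, against 120 and 122 in control, a rise of 0.61 ± 0.12 (limma adjusted p 0.00526). HOXB5, a trunk gene between them, read 91.6, 89.8 and 111 in cells given both drugs, against 55.6 and 45.6 in control. It rose by 0.94 ± 0.24 (limma adjusted p 0.0188). In none of these genes did the groups overlap.

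HOXC6 read 855, 778 and 816 in cells given both drugs, against 566 and 553 in control. Its rise of 0.54 ± 0.12 (limma adjusted p 0.00848) was smaller than with Wee1 inhibitor alone, and that difference is tested below. HOXD8 read 128, 113 and 116 in cells given both drugs, against 75.0 and 55.6 in control, a rise of 0.88 ± 0.17 (limma adjusted p 0.00481).

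The weaker signals of HOXB8, HOXC8 and HOXB9 read 20.3 to 35.1, 22.0 to 31.3 and 40.1 to 58.9 in cells given both drugs, all above their control arrays. Their rises were 1.90 ± 0.31, 1.09 ± 0.26 and 0.98 ± 0.30, with limma adjusted p of 0.00226, 0.0157 and 0.0419. With signals under 32 set to 32, none of the 3 was called (limma adjusted p 0.577, 1 and 0.173). The second probe sets of HOXB8, HOXB9, HOXB3 and HOXB5 gave 2.06, 0.40, 0.48 and 0.49 and were not called, at limma adjusted p of 0.258, 0.326, 0.510 and 0.318.

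HOXD13 was the one HOX gene called lower. It read 122, 108 and 101 in cells given both drugs, against 149 and 161 in control. It fell by 0.49 on the log2 scale, with a standard error of 0.16 (limma adjusted p 0.0470), and all 3 treated arrays were under both controls. A second HOXD13 probe set fell by 1.09 (limma adjusted p 0.00832), and the third gave -0.64 (limma adjusted p 0.331). In the same comparison, HOXB2 differed by 0.46 ± 0.22 (limma adjusted p 0.178).

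Leaving out control replicate 3 left 4 calls, without HOXB5, HOXB9, HOXC6, HOXC8 and HOXD13 (limma adjusted p 0.123, 0.0714, 0.0538, 0.0962 and 0.202). HOXB9 and HOXD13 were the least secure: HOXB9 kept its call only without Wee1 inhibitor replicate 1 or 2 or replicate 3 of both drugs (0.0510 to 0.230 otherwise), and HOXD13 only without Wee1 inhibitor replicate 3 or 17-AAG replicate 2 (0.0502 to 0.202 otherwise). HOXC8 was lost without control replicate 1 (0.0552), HOXB5 without replicate 3 of both drugs (0.0591), and with control replicate 2 included 3 HOX genes were called.

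**Figure D4:**
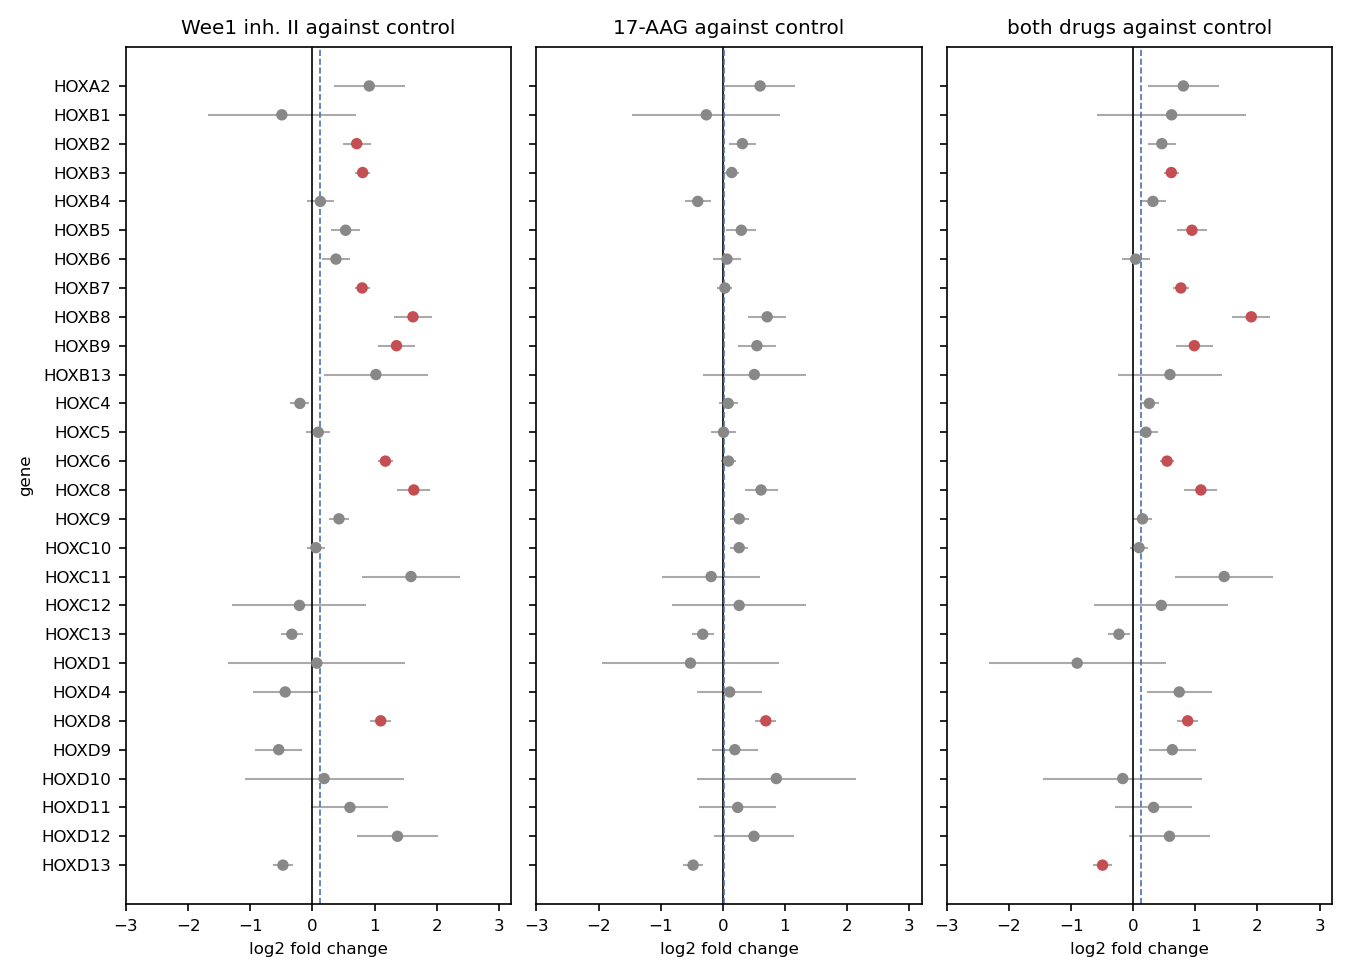
Log2 fold change against control of the 28 HOX genes for the 3 treated groups, with standard errors from limma. Red points passed an adjusted p of 0.05, and the dashed line is the median of all genes (0.12, 0.01 and 0.12). HOXD8 is red in each panel.

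Against 17-AAG alone, 5 HOX genes were higher with both drugs and none lower (7 and 0 at an unadjusted p under 0.05 by limma), while 19.6% of all genes were called, 11.1% higher and 8.50% lower. The median log2 difference was 0.19 over the HOX genes and 0.11 over all genes. These comparisons share arrays with those above and are not independent of them. HOXB7 differed by 0.73 ± 0.11 (limma adjusted p 0.00275), and its lowest array with both drugs, at 1086, was above the highest with 17-AAG, at 771. HOXB3 differed by 0.47 ± 0.11, HOXC6 by 0.45 ± 0.10 and HOXB8 by 1.19 ± 0.28, with limma adjusted p of 0.0166, 0.0177 and 0.0191. HOXB4, which expands blood stem cells when forced on, read 119, 131 and 146 in cells given both drugs, against 65.2, 110 and 71.2 in 17-AAG cells. It differed by 0.72 ± 0.19 (limma adjusted p 0.0314), and the groups did not overlap.

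The second probe sets of HOXB3 and HOXB8 gave 0.51 and 1.48 here and were not called (limma adjusted p 0.452 and 0.404). Only HOXB7 held with any 1 array left out. HOXB3 was lost without 17-AAG replicate 1 or replicate 2 of both drugs (limma adjusted p 0.0586 and 0.0505), HOXB8 without replicate 2 or 3 of both drugs (0.0614 and 0.0665), HOXC6 without 17-AAG replicate 3 or replicate 1 or 3 of both drugs (0.0537 to 0.0625), and HOXB4 without 17-AAG replicate 1 or 3 or any replicate of both drugs (0.0529 to 0.101). With each array centred on its median 2 were called, the HOX median was -0.01 and that of all genes -0.10, with 4.19% of all genes called higher and 11.9% lower.

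Against Wee1 inhibitor alone, 1 HOX gene was lower with both drugs and none higher (1 and 3 at an unadjusted p under 0.05 by limma), while 7.44% of all genes were called higher and 6.88% lower. The median log2 difference was -0.12 over the HOX genes and 0.01 over all genes. HOXC6 fell by 0.63 on the log2 scale, with a standard error of 0.10 (limma adjusted p 0.00496), to 855, 778 and 816 with both drugs, against 1183, 1233 and 1380 with Wee1 inhibitor alone. The call held with any 1 of the 11 arrays left out. HOXB7 differed by -0.03 ± 0.11 (limma adjusted p 0.891), with a 95% interval of -0.29 to 0.22. HOXD9, a dim gene, differed by 1.17 ± 0.33 (limma adjusted p 0.0538).

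The interaction asks whether the effect of both drugs differed from the sum of the single effects on the log2 scale, and 4.87% of all genes were called above that sum and 7.00% below it. No HOX gene was above it and 2 were below it, with 0 and 4 at an unadjusted p under 0.05 by limma. HOXC6 was -0.72 ± 0.16 (limma adjusted p 0.0225) and HOXD8 -0.92 ± 0.22 (limma adjusted p 0.0349). The HOX median was -0.37 and that of all genes -0.02. For HOXC6 the single effects were 1.18 with Wee1 inhibitor and 0.09 with 17-AAG, and the joint effect was 0.54. For HOXD8 they were 1.10 and 0.69, and the joint effect was 0.88. HOXC6 lost the call without replicate 2 or 3 of both drugs or without control replicate 1 or 3 (limma adjusted p 0.0522 to 0.0762). HOXD8 lost it without any of 9 arrays (0.0541 to 0.115) and held without control replicate 1 or 17-AAG replicate 2.

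Cell type markers moved with the treatments. The summed signal of the 9 pigment markers was 30553 to 33037 in Wee1 inhibitor cells, 44138 to 49568 in 17-AAG cells and 52806 to 54141 with both drugs, against 35566 to 36913 in control. The sum of the 12 epithelial markers, mostly KRT18 and ESRP1, was 784 to 934 in Wee1 inhibitor cells, 897 to 981 in 17-AAG cells and 1368 to 1461 with both drugs, against 874 to 909 in control. The sum of the 6 fibroblast markers, mostly LUM, was 360 to 423 in Wee1 inhibitor cells, 1732 to 1871 in 17-AAG cells and 731 to 787 with both drugs, against 1059 to 1166 in control. The log2 gap between the 3-prime and 5-prime probe sets of ACTB, a measure of RNA integrity and labelling, was 0.68 ± 0.09 in Wee1 inhibitor cells, 0.96 ± 0.08 in 17-AAG cells and 0.96 ± 0.05 with both drugs (SD, n = 3), against 0.69 ± 0.03 in control (SD, n = 2). The part of these in the HOX results was not tested.

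Genes that bind or regulate HOX genes were listed by role. Each count of called genes below stands against the shares over all genes, which were 14.6% higher and 10.4% lower with Wee1 inhibitor, 9.95% and 6.93% with 17-AAG, and 16.9% and 11.4% with both drugs. Lists of 5 to 20 measured genes are small, and nothing particular to a list is read from its count. Of the Polycomb genes, which keep HOX genes silent, 20 of 24 were measured. With Wee1 inhibitor 5 were called higher and 3 lower, with 17-AAG 5 and 4, and with both drugs 7 and 6. EZH2, the methyltransferase, read 235, 243 and 260 with both drugs, against 820 and 689 in control, with no overlap. It fell by 1.61 on the log2 scale with both drugs (standard error 0.12, limma adjusted p 5.47e-05), and by 0.48 and 0.43 with Wee1 inhibitor and 17-AAG alone (0.0199 and 0.0399). EED, which anchors the same complex, fell by 0.86 with Wee1 inhibitor, 0.91 with 17-AAG and 1.06 with both drugs (limma adjusted p 0.000397, 0.000836 and 9.53e-05). It read 625, 628 and 594 with both drugs, against 1234 and 1329 in control. PCGF6 fell by 0.69 with both drugs and CBX2 by 0.86 with 17-AAG (limma adjusted p 0.000753 and 0.00547), while JARID2, a cofactor of that complex, rose by 0.70 with 17-AAG and fell by 0.36 with Wee1 inhibitor (0.00528 and 0.0483). CBX7 and PCGF2 rose by 1.03 and 0.64 with Wee1 inhibitor (0.00371 and 0.00704). The median log2 change of the list was -0.01, -0.01 and 0.00 for Wee1 inhibitor, 17-AAG and both drugs.

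Of 16 trithorax and histone demethylase genes 15 were measured. With Wee1 inhibitor 1 was called higher and 2 lower, with 17-AAG 1 and 2, and with both drugs 3 and 3. KMT2A, which maintains HOX expression, read 130, 163 and 137 in Wee1 inhibitor cells, against 70.8 and 67.0 in control. It rose by 1.05, 0.76 and 0.89 with Wee1 inhibitor, 17-AAG and both drugs (limma adjusted p 0.00357, 0.0223 and 0.00613). WDR5, a subunit of its complexes, fell by 0.71, 0.72 and 1.30 (0.0218, 0.0302 and 0.00104). ASXL1, part of a histone deubiquitinase, fell by 0.77, 0.37 and 1.41 (0.00118, 0.0426 and 5.13e-05). Of 5 other regulators, all measured, GMNN fell by 0.88, 0.70 and 1.72 (0.00336, 0.0146 and 9.73e-05). GMNN encodes geminin, which limits DNA replication and also binds HOX proteins, and it read 655, 673 and 738 with both drugs, against 2314 and 2232 in control. CTCF, the insulator protein, fell by 0.34 with 17-AAG and 0.28 with both drugs (0.0308 and 0.0440).

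Of the 11 PBX, MEIS and related partner genes 10 were measured, and with Wee1 inhibitor 3 were called higher and 1 lower, with 17-AAG none, and with both drugs 2 higher. PBX2 read 343, 323 and 265 in Wee1 inhibitor cells, against 191 and 197 in control, a rise of 0.67 ± 0.15 (limma adjusted p 0.0126), and with both drugs it rose by 0.70 (0.00876). TGIF1, a repressor of the same homeodomain class, rose by 0.80 with Wee1 inhibitor (0.00159). MEIS3 was dim and rose by 1.96 and 2.33 with Wee1 inhibitor and both drugs (0.0492 and 0.0221). MEIS1 read 127, 144 and 154 with both drugs, against 95.8, 87.4 and 84.0 with 17-AAG, a rise of 0.67 (0.00336). PKNOX2 was lower with Wee1 inhibitor, at 57.1, 60.4 and 65.9, against 79.6 and 88.5 in control. With 17-AAG, 4 partner genes had an unadjusted p under 0.05.

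Of 15 genes of retinoic acid synthesis, breakdown and response 13 were measured. With Wee1 inhibitor 4 were called higher and 2 lower, with 17-AAG 1 and 1, and with both drugs 2 and 1. CYP26B1, which breaks down retinoic acid, read 357, 374 and 361 in Wee1 inhibitor cells, against 112 and 111 in control, and rose by 1.71 ± 0.14 (limma adjusted p 0.000156). With both drugs it rose by 0.58 (0.0155). ALDH1A3, which makes retinoic acid, rose by 0.74 with Wee1 inhibitor (0.00358), and the receptor gene RXRB rose by 0.73 and 1.06 with Wee1 inhibitor and both drugs (0.0125 and 0.00169). The receptor gene RXRG went the other way with Wee1 inhibitor, at 94.5, 96.9 and 101, against 137 and 130 in control.

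Of 26 non-coding genes and neighbours of the clusters 17 were measured. With Wee1 inhibitor 1 was called higher and 1 lower, with 17-AAG none, and with both drugs 2 higher. HOXB-AS1, a non-coding gene between HOXB2 and HOXB3, read 46.8, 42.5 and 72.7 in Wee1 inhibitor cells and 81.7, 56.9 and 55.9 with both drugs, against 25.4 and 23.7 in control. It rose by 1.10 ± 0.26 and 1.38 ± 0.26 (limma adjusted p 0.0157 and 0.00453), and neither treated group overlapped control. MTX2, the gene beyond HOXD1, fell by 0.59 with Wee1 inhibitor (0.00161). HOXA-AS2 was dim and rose by 1.20 with both drugs (0.0376). With 17-AAG, 1 gene of the list had an unadjusted p under 0.05. These lists were not tested as sets.

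**Figure D5:**
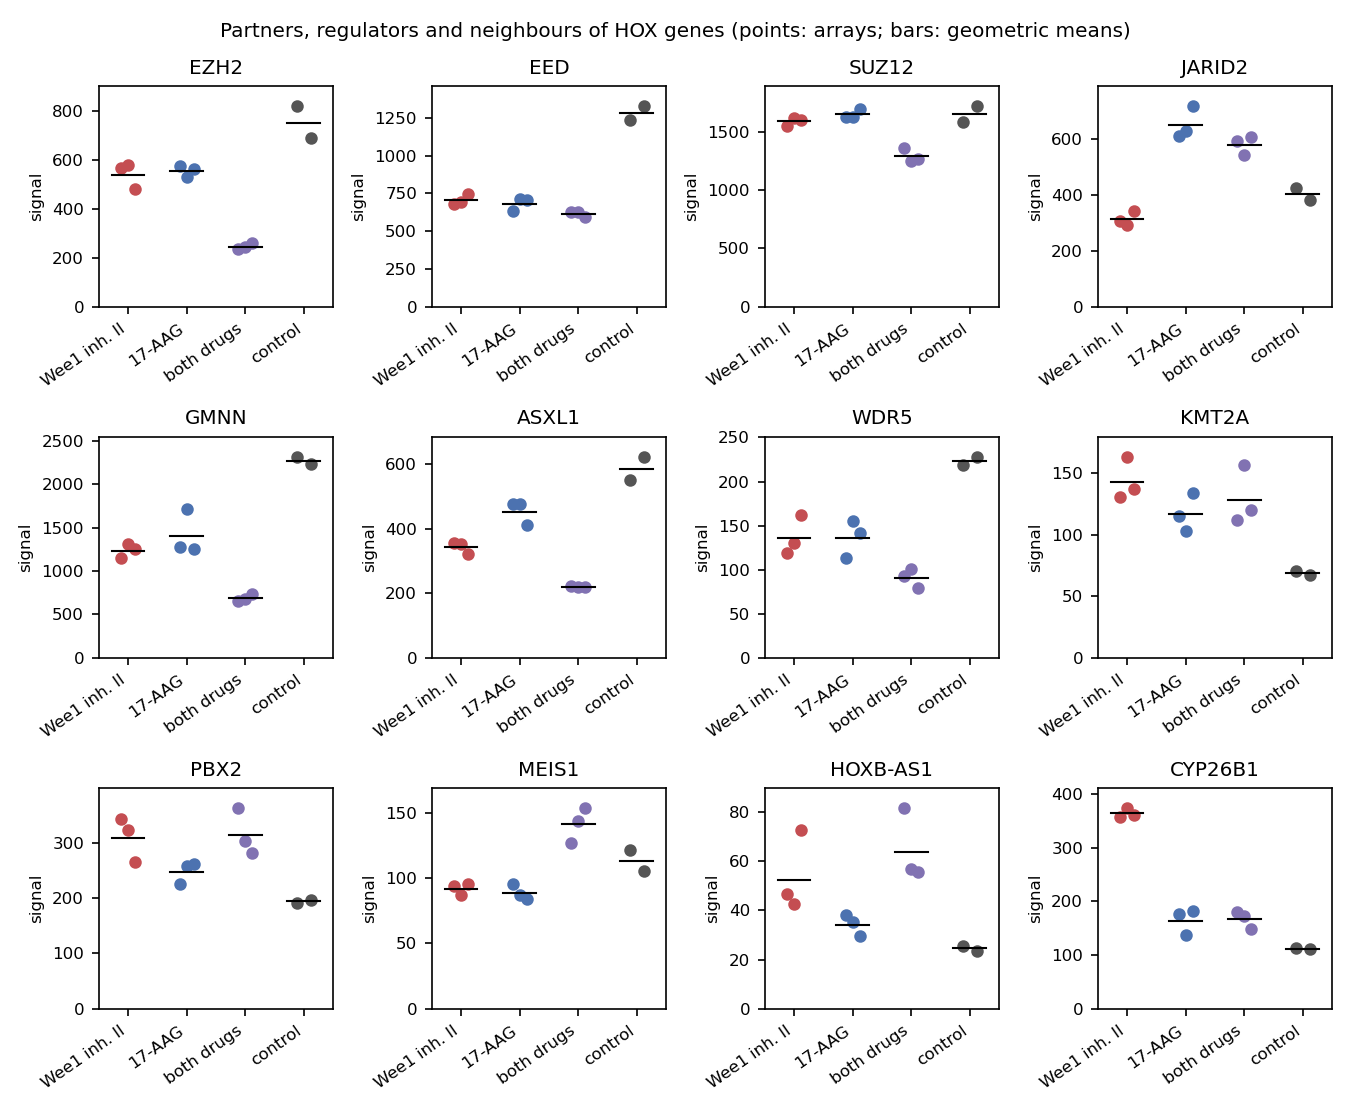
Signal (linear axis from 0) of 12 regulators, partners and neighbours of HOX genes on each array of the 4 groups, with the geometric mean as a bar. EZH2, GMNN and ASXL1 are lowest with both drugs, KMT2A is higher in the 3 treated groups than in control, and CYP26B1 stands highest with Wee1 inhibitor alone.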

How the data were processed

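Per the labels' protocols, biotin-labelled RNA, made with a 3-prime kit from total RNA, was read on 12 Affymetrix arrays. The authors deposited intensity values, 1 for each of 54675 probe sets and array, and Partek 6.5 and RMA are named, per the submitters' processing notes. The deposited intensity values are linear, from 0.0212 to 17908, with the same 2% trimmed mean on every array, so log2 values were taken and no second normalisation was run. RMA brings arrays to equal quantiles, while the medians of these values differed, at 17.7 to 23.1 on the 11 arrays. The values are thus not taken as RMA values, and which software made them is not given. Detection calls were not used here, and the number of arrays limits the precision.

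Of the probe sets, 62 were array controls, 41091 named 1 gene, 1801 several and 11721 none in the annotation used, and 42 symbols were not found by gene ID. For each of 19775 genes the probe set with 1 symbol and the highest maximum over 12 arrays was kept. Limma 3.58.1 in R 4.3.3 was fitted to the 11 arrays (7 residual and 1.10 prior degrees of freedom), tested on simulated data, with Benjamini and Hochberg adjustment over all genes in each of 6 comparisons. The members, gene lists, alternatives and rules were chosen with earlier results of these data known. The rule for naming genes gave array values for HOX genes that were bright, called or apart on control replicate 2, and took up to 4 called genes with the smallest p from each list of partners. Genes outside it were named after their values were seen: JARID2, CBX2, CBX7, PCGF2 and genes beside a called HOX gene. RXRG and PKNOX2 were also named after their values were seen. Markers were of PC3 cells and prostate epithelium, pigment cells, PC3 deletions (2 of 3 measured), fibroblasts and blood cells. Alternatives were the probe set rule, quantile normalisation, centring, control replicate 2 included, array weights, trended and robust empirical Bayes, the replicate block, leaving out the dimmest 40% of genes, a floor of 32, other probe sets (chosen after seeing the data, as was the floor for control replicate 2) and each array left out in turn. Deviations from the group means did not correlate more between samples of the same replicate number than between others, so the main fit held no pairing. With 2 control arrays these deviations mirror each other, so this check cannot show that no pairing existed.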

Additional observations from a re-analysis of the deposited data

Results flagged for a closer look

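For 2 of the 28 HOX genes the interaction term of limma over all genes was called, both below the sum of the single effects. Over all genes 7.00% were called below that sum and 4.87% above it, so the count is not read as particular to HOX genes. For HOXC6 the interaction was -0.72 ± 0.16 on the log2 scale (limma adjusted p 0.0225), and for HOXD8 it was -0.92 ± 0.22 (limma adjusted p 0.0349). Both were less than additive. Of 21 settings each, HOXC6 lost the call in 7 and HOXD8 in 13, some of them given below.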

How the results depend on the processing

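All 26 results on single HOX genes were recomputed under 21 to 23 settings each, which gave 560 recomputed values in all. In 440 the direction and the side of the threshold stayed, in 119 the direction stayed and the call was lost (17 of them with control replicate 2 included and 58 with 1 array left out), and 1 reversed: HOXD13 with both drugs against control was 0.65 with control replicate 2 included (limma adjusted p 0.661). The rises of HOXC6 and HOXD8 with Wee1 inhibitor II and of HOXD8 with both drugs held under each of the 21 settings tried. With control replicate 2 included, HOX calls against control numbered 5 with Wee1 inhibitor II, 0 with 17-AAG alone and 3 with both drugs, and the other 3 comparisons had 0 each. At an unadjusted p under 0.05 limma then gave 3 HOX genes with 17-AAG alone, 4 for both drugs against 17-AAG, 3 against the Wee1 inhibitor and, for the interaction, 5. With signals under 32 set to 32, 5 HOX genes were called for Wee1 inhibitor II. For 17-AAG 2 were called with trended and robust empirical Bayes and without the dimmest 40% of genes. For both drugs against 17-AAG 3 were called when probe sets of one gene were averaged and 2 with centred arrays. For both drugs against Wee1 inhibitor II 2 were called with quantile normalisation, array weights, trended and robust empirical Bayes and without the dimmest 40%. For the interaction 1 was called with the mean of probe sets and 0 with centred arrays, where 3 had an unadjusted p under 0.05. With the replicate number as a block, 0 were called for the interaction (4 at an unadjusted p under 0.05), with limma adjusted p of 0.0596 for HOXC6 and 0.0594 for HOXD8. No pairing by that number was seen, with correlations of -0.13 to 0.10 for 15 pairs of equal number and -0.19 to 0.19 for 30 others. With 1 array left out, the calls ranged from 6 to 8 for Wee1 inhibitor II, 0 to 4 for 17-AAG, 4 to 8 for both drugs against control, 2 to 5 against 17-AAG, 1 to 2 against the Wee1 inhibitor and, for the interaction, 0 to 3. Of genes apart on control replicate 2, 4 or 5 were counted under the other settings and 3, without HOXB2, with signals under 32 set to 32 (chosen after seeing the data). The cause of these changes was not tested. Shares of all genes called are at hand only for quantile normalisation and centred arrays. Whether a changed HOX count under the other settings, here or above, follows a change over all genes was not tested. Signals near the array median limit HOXB8, HOXB9 and HOXC8, and 2 control arrays limit each comparison with control.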
